A study of Mus musculus with 7 samples.

Results

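The genes described here are Mreg, Mfsd4a and Cdh4, 3 of 20343 genes in a table of RNA sequencing counts from mouse heart. They were selected on the measured contrast itself, because their levels in hearts given human T cells lay below those of untreated hearts with little spread. Their difference between the groups is therefore given as a description with no p-value, and where the genes are counted among those called, nothing is read from it. All 3 were among the 7667 genes that passed the filter on low counts.

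Tissue came from the apical myocardium of 7 mice of the strain labelled NSG-DRB1*0101, also called NSG-DR1. These animals lack mature lymphocytes of their own, keep myeloid cells, and carry a human HLA-DR1 transgene, both in the control and in the treated group. The 4 control mice were untreated. The group called transferred here consists of 3 mice sampled 6 weeks after a transfer of human CD4+ T cells. The labels give neither the age of the animals nor a batch, and replicate numbers here only name the hearts. The identifiers of control heart 1 and transferred heart 1 begin with letters, while those of the other hearts are numbers.

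Mreg encodes melanoregulin, a small membrane-anchored protein known from the dilute suppressor locus of coat colour. It is linked to the dynactin-dependent movement of melanosomes and to the maturation of phagosomes and lysosomes. Mfsd4a encodes a member of the major facilitator superfamily, a large group of membrane proteins that carry sugars, lipids, metals and other small solutes. Cdh4 encodes R-cadherin, a classical cadherin whose extracellular part binds its like on neighbouring cells in the presence of calcium and whose tail binds catenins. The 3 genes thus belong to different families, and their common feature in these data is the pattern over the hearts.

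On the GRCm38.p6 build, Mreg occupies positions 72159233 to 72212314 of chromosome 1, on the minus strand. Mfsd4a lies on the same chromosome and strand at 132022806 to 132069658. Cdh4 covers 179442423 to 179899377 of chromosome 2 on the plus strand, and at 456955 bases it spans far more of the genome than Mreg (53082 bases) or Mfsd4a (46853 bases). The basic GENCODE M21 annotation lists 1 transcript of 5 exons for Mreg, 6 transcripts of 7 to 11 exons for Mfsd4a and 3 transcripts of 2 to 16 exons for Cdh4. Counts were taken over combined exons, so the signal of separate transcripts cannot be told apart.

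RefSeq promoter sequences of the same build were matched for Mreg and Mfsd4a. They are shown for these genes alone because the promoter sequences used held no entry for Cdh4. Each line holds the 250 bases before the start site, 5′ to 3′ on the gene's own strand, in lower case, with matches to the motifs searched in capitals. The Mreg window is chr1:72212315-72212564 and the Mfsd4a window chr1:132068063-132068312, both on the minus strand. The Mfsd4a start used by RefSeq, 132068062, lies inside the annotated span of the gene.
Mreg: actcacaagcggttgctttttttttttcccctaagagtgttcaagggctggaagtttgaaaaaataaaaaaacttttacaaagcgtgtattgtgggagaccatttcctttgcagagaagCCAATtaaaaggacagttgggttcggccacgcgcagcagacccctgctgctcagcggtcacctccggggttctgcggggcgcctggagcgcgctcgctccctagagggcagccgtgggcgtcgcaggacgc
Mfsd4a: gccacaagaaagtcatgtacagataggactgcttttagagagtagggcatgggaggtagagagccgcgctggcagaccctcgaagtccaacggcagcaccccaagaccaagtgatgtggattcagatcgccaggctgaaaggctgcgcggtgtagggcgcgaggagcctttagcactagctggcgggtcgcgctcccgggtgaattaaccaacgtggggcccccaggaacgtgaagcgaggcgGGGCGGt

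Both windows were rich in CpG. The Mreg window held 16 CG dinucleotides and 54.4% G or C, and the Mfsd4a window held 18 and 60.8%, where the medians over 32851 such windows of 27025 genes were 6 CG dinucleotides and 52.4%. The capitals in Mreg mark a CCAAT box (CCAAT), 131 bases before the start, a motif that 33.8% of all windows hold. The capitals in Mfsd4a mark a GC box (GGGCGG) 7 bases before the start, held by 32.7% of all windows. No match overlapped another. Of the other motifs searched on either strand, neither window held the E-box CACGTG (6.02% of all windows), its variant CATGTG (12.3%), TATAAA (12.4%), the GAS motif TTCNNNGAA (7.02%), the interferon response core GAAANNGAA (7.13%), the TEAD motif CATTCC (12.6%), the GATA motif AGATAA (9.99%) or the MEF2 core CTATTTA (2.63%). RefSeq lists another start for Mreg a few bases inward, at 72212307, whose window held the same CCAAT box and no other match. Cdh4 is not in the promoter table.

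Mreg was lower in the transferred hearts. Its level, in CPM (counts scaled to a common library size, with TMM factors between libraries), was 76.0, 65.8, 67.64 and 69.5 CPM in control hearts 1 to 4, from 1562, 1530, 1762 and 1101 counts. In transferred hearts 1 to 3 it was 44.1, 45.9 and 46.9 CPM, from 871, 976 and 950 counts. The groups did not overlap, and the highest transferred heart was at 0.713 times the lowest control heart. Group means were 69.7 ± 4.41 CPM (SD, n = 4) for control and 45.7 ± 1.43 CPM (SD, n = 3) for transferred hearts. The fitted log2 fold change was -0.61, with an SE of 0.08.

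Mfsd4a showed nearly the same proportional difference at a lower level. The control hearts stood at 24.6, 26.2, 25.4 and 25.5 CPM and the transferred hearts at 16.9, 16.6 and 16.2 CPM. All control hearts lay within a narrow band and all transferred hearts within another, with a gap of 7.74 CPM between them. Control hearts averaged 25.4 ± 0.656 CPM (SD, n = 4), and transferred hearts 16.5 ± 0.331 CPM (SD, n = 3). The fitted log2 fold change was -0.62, with an SE of 0.09, close to that of Mreg. These levels rest on 404 to 662 counts per control heart and 328 to 352 per transferred heart.

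Cdh4 had the largest proportional difference of the 3 genes, and Mreg the largest in CPM. It was at 19.9, 18.8, 16.7 and 22.6 CPM in control hearts and at 10.6, 10.1 and 11.0 CPM in transferred hearts. Control heart 4 was the highest and control heart 3 the lowest of the controls, and even the latter lay 5.68 CPM above the highest transferred heart. Averages were 19.5 ± 2.45 CPM (SD, n = 4) in the control group and 10.6 ± 0.477 CPM (SD, n = 3) in the transferred group. The fitted log2 fold change was -0.88, with an SE of 0.13. Counts were 409, 438, 435 and 358 in control hearts and 209, 214 and 223 in transferred hearts. None of the 21 deposited values of the 3 genes had a fractional part. How fractional values arose is not given in the sources used here.

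**Figure D1:**
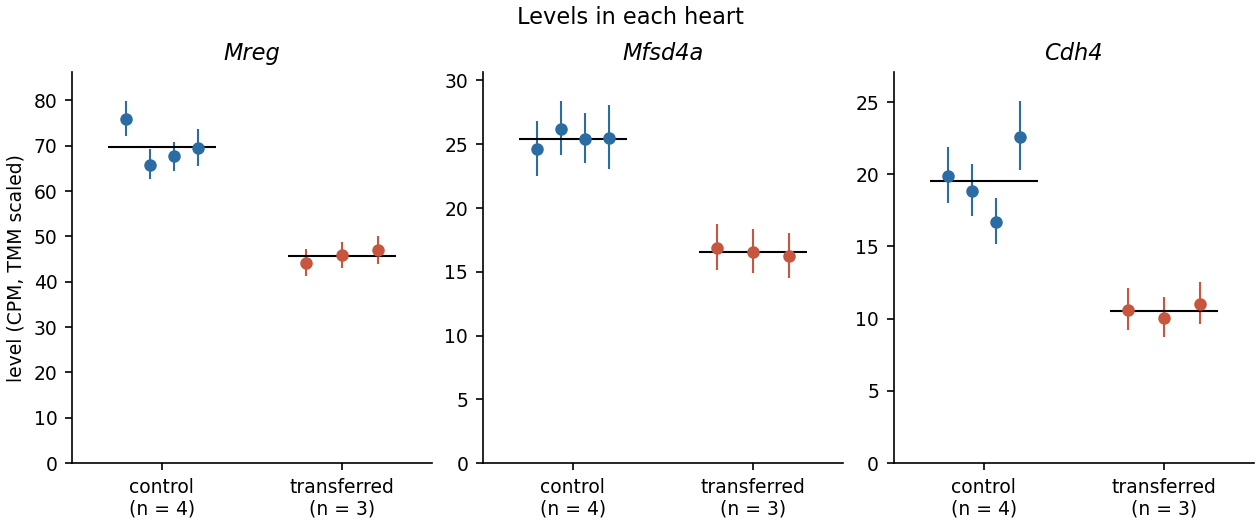
Level of each gene in CPM (vertical axis, from 0) in 4 control and 3 transferred hearts. Points are hearts, vertical bars exact 95% Poisson intervals of the count, which cover counting error only, and horizontal lines group means. In each panel every transferred heart lies below every control heart, for Mreg from 44.1 to 46.9 CPM against 65.8 to 76.0 CPM.

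The 3 of 3 genes with no overlap, all lower, stand beside 5.22% of all 7667 tested genes with that pattern. In the edgeR quasi-likelihood test with Benjamini-Hochberg adjustment over all tested genes, 18 genes were called at an adjusted p under 0.05, which is 0.235% of those tested, and the 8 called lower are 0.104%. The 3 genes are among these 8, which the way they were chosen fixes. The others called lower were Aplnr, Chek2, Aqp1, Thrsp and Cdkn1c, with log2 fold changes from -1.11 for Thrsp to -0.67 for Chek2. By log2 fold change alone the members were less extreme: Cdh4 ranked 131, Mfsd4a 284 and Mreg 292 from the lowest of all tested genes. The calls changed when single hearts were left out. Without control heart 1, 2, 3 or 4, or without transferred heart 2, 0 of the 3 genes were called. Without transferred heart 1, 1 was called, and without transferred heart 3 all 3 were. Over the whole table edgeR then called 0 genes without control heart 1, 2 or 4 or transferred heart 2 (831, 658, 773 and 706 at an unadjusted p under 0.05), 1 without control heart 3, and 140 without transferred heart 3.

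The spread of these genes between hearts was part of their choice and is given as a description. The coefficient of variation over the transferred hearts was 3.13% for Mreg, 2.0% for Mfsd4a and 4.52% for Cdh4, against a median of 12.5% over all tested genes. Counting alone gives 3.28%, 5.44% and 6.81% at these depths, so the observed spread was below the size of the counting error in all 3. Over the control hearts the coefficient was 6.32% for Mreg, 2.58% for Mfsd4a and 12.5% for Cdh4, against a median of 11.1%. There the counting error was 2.59%, 4.28% and 4.94%, and Mreg and Cdh4 varied more than counting alone gives.

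Per length, the order of levels in control hearts was Mreg, Cdh4 and Mfsd4a. Mreg was at 18.7 ± 1.18 CPM per kilobase of combined exons (SD, n = 4), Cdh4 at 2.78 ± 0.348 and Mfsd4a at 2.28 ± 0.0587. The control hearts of the latter pair did not overlap, at 2.38 to 3.21 CPM per kilobase for Cdh4 and at most 2.35 for Mfsd4a. In transferred hearts they did, at 1.43 to 1.57 and 1.45 to 1.51 CPM per kilobase, so their order there is within the spread. Combined exons count every annotated exon (11176 bases for Mfsd4a), and a gene that uses few of them is understated on this scale.

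The ratio of the level of Mreg to that of Mfsd4a ran from 2.51 to 3.09 in control hearts, with a mean of 2.75 ± 0.244 (SD, n = 4), and from 2.62 to 2.90 in transferred hearts, with a mean of 2.76 ± 0.141 (SD, n = 3). These means restate the similar fold changes of this pair. The genes were selected for being lower in every transferred heart with little spread. Against Cdh4, the ratio of Mreg was 3.61 ± 0.423 in control hearts, from 3.08 to 4.05, and 4.33 ± 0.206 in transferred hearts, from 4.17 to 4.56, without overlap. The ratio of Mfsd4a to Cdh4 overlapped between the groups, at 1.13 to 1.52 in control and 1.47 to 1.64 in transferred hearts. Deviations from the group mean, on the log2 scale, were largest for Cdh4. Control heart 4 was at 0.22 and control heart 3 at -0.21 for Cdh4, and the same hearts were at -0.003 and -0.04 for Mreg. Control heart 1 was at 0.13 for Mreg, 0.04 for Cdh4 and -0.05 for Mfsd4a.

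The form of the animals' identifiers splits the hearts into a pair with letters and 5 with numbers. Between the hearts with letters the log2 difference was -0.78 for Mreg, -0.54 for Mfsd4a and -0.90 for Cdh4. Among the hearts with numbers alone it was -0.54, -0.65 and -0.86. The sign was the same in each, which carries no information, because the genes were chosen for lying lower in every transferred heart. The pair with letters holds 1 heart of each group, so it allows no estimate of spread. With the identifier form as a covariate, or with the hearts with numbers alone, edgeR called 0 of Mreg, Mfsd4a and Cdh4, all of which were called in the main fit.

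Likeness of profiles was measured over the 7 hearts as the root mean square difference of log2 CPM, after each gene was centred on its own mean, among 7003 other genes with a mean of at least 1 CPM. Mreg and Mfsd4a were each other's closest gene, with a difference of 0.0909. After Mfsd4a, the genes closest to Mreg were Syt3, which encodes a calcium-sensing synaptotagmin (0.103), Gm32753 (0.111) and Chek2, a DNA damage checkpoint kinase (0.112). After Mreg, those closest to Mfsd4a were Chek2 (0.0989), Gadd45a, a growth arrest and DNA damage inducible gene (0.0990), and Whrn, which encodes the scaffold protein whirlin (0.103). Cdh4 was at rank 49 for Mreg and 73 for Mfsd4a, while for Cdh4 itself Mreg was at rank 6 (0.176) and Mfsd4a at rank 7 (0.182).

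The genes closest to Cdh4 were Egf, Aqp1, Thrsp and Cdkn1c, with differences of 0.135, 0.140, 0.162 and 0.165. Egf encodes epidermal growth factor, and its level was 24.2 ± 2.37 CPM (SD, n = 4) in control and 13.4 ± 2.60 CPM (SD, n = 3) in transferred hearts, with an edgeR adjusted p of 0.0572. Aqp1, a water channel of the endothelium, was at 839 ± 97.5 CPM (SD, n = 4) and 417 ± 67.7 CPM (SD, n = 3). Such lists are led by genes with the same difference between the groups, and likeness here is a description of 7 hearts.

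The cadherins and junction partners of Cdh4 were read from a list of related genes, and Mreg, Mfsd4a and Cdh4 themselves were left out of all such lists. Of 76 genes listed, 29 were in the analysed part of the genome and 22 were tested. By edgeR 0 were called, beside 0.235% of all tested genes. At an unadjusted p under 0.05, 3 were higher (background 7.17% of all tested genes) and 0 lower (background 5.27%). DESeq2 and limma-voom each called 0. Over the whole table DESeq2 called 2.31% of genes higher and 0.713% lower, and limma-voom called 0. The median log2 fold change was -0.02, against -0.002 over all tested genes, with 11 genes on either side of 0. The value nearest to that of Cdh4 was Cdh22, also a cadherin, at 5.07 ± 2.40 CPM (SD, n = 4) in control and 2.90 ± 0.749 CPM (SD, n = 3) in transferred hearts. The fitted log2 fold change was -0.79, with an SE of 0.37 (edgeR adjusted p = 0.428), and the groups overlapped.

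Among genes with a Cdh symbol in the analysed part of this list, none reached the level per length of Cdh4 in control hearts. Other listed genes with a Cdh symbol, such as Cdh2 and Cdh5, lie outside the analysed part, so their levels are not known here. Of cadherin-related genes, Clstn1 (37.4 CPM per kilobase), Pcdh7 (20.6), Dchs1 (5.07) and Pcdh18 (4.13) lay above Cdh4. Cdh20 was at 1.87, Cdh22 at 0.739 and Cdh19, a Schwann cell cadherin, at 0.461 CPM per kilobase, against 2.78 for Cdh4. Cdh7, Cdh17 and Cdh26 were under the filter, with 2, 4 and 10 counts over all hearts. Cdh20 had a log2 difference of -0.05 (edgeR adjusted p = 0.926) and Cdh19 of 0.0035 (edgeR adjusted p = 0.996). The catenin gene Ctnnd1, whose protein binds cadherin tails, was at 278 ± 30.6 CPM (SD, n = 4) and 267 ± 19.8 CPM (SD, n = 3). Apart from Pcdh7, Cdh22 and the unmeasured Cdh2 and Cdh5, these genes were named after their values were seen.

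The smallest p-values of this list belonged to Pcdh7, Plekha7, Nectin4 and Cdh22. The protocadherin gene Pcdh7 was at 273 ± 11.6 CPM (SD, n = 4) in control and 325 ± 19.6 CPM (SD, n = 3) in transferred hearts (edgeR adjusted p = 0.197). The log2 fold change was 0.74 for Plekha7, an adherens junction adaptor, and 0.98 for Nectin4, an adhesion receptor, which averaged 1.07 CPM in control hearts. The junction genes with the smallest p-values thus differed from Cdh4 in sign, apart from Cdh22. None passed the threshold, which 0.235% of all tested genes did.

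Genes of lysosome-related organelles and their transport, the setting in which melanoregulin is known, stayed close to 0. Of 58 listed genes, 27 were in the analysed part and 26 were tested, with 0 called by edgeR, DESeq2 or limma-voom and 0 at an unadjusted edgeR p under 0.05 in either direction. The backgrounds over all tested genes were 0.235% called by edgeR, and 7.17% higher and 5.27% lower at that unadjusted p. Log2 fold changes lay between -0.28 and 0.17, with a median of -0.03, 16 lower and 10 higher. The 4 smallest p-values were those of Rilpl1, Vps16, Vps33a and Hps4. Rilpl1, related to the Rab7 effector Rilp, was at 419 ± 49.7 CPM (SD, n = 4) in control and 346 ± 53.8 CPM (SD, n = 3) in transferred hearts. Its log2 fold change was -0.28, with an SE of 0.12 (edgeR adjusted p = 0.401). The log2 fold change was 0.17 for Vps16 and -0.11 for Vps33a, which encode subunits of a lysosomal tethering complex, and -0.19 for Hps4, a gene of Hermansky-Pudlak syndrome.

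Levels differed widely between genes of this list. Per kilobase, control hearts held 46.5 CPM of Dctn1, the large dynactin subunit, and 244 CPM of Rab7, the late endosome GTPase, against 18.7 CPM of Mreg. Mlph, the melanophilin gene of the melanosome tether, was at 0.419 CPM per kilobase, and Snapin, of a complex that builds lysosome-related organelles, at 72.7. Dctn1 had a log2 difference of -0.07 (edgeR adjusted p = 0.847), Rab7 of -0.05 (edgeR adjusted p = 0.884) and Mlph of -0.08 (edgeR adjusted p = 0.953). These genes were named for their roles, after their values were seen.

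Transporters of the major facilitator superfamily were scattered on both sides of 0. Of 72 listed genes, 33 were in the analysed part and 27 were tested. By edgeR 0 were called, beside 0.235% of all tested genes. At an unadjusted p under 0.05, 2 were higher and 3 lower, beside backgrounds of 7.17% and 5.27%. The median log2 fold change was 0.04, 17 genes were higher and 10 lower, and limma-voom called 0 genes while DESeq2 called Slc40a1 lower and Slc2a6 higher. Over the whole table DESeq2 called 2.31% of 8273 genes with an adjusted p higher and 0.713% lower. Genes named Mfsd in this list were not called, with small values on either side of 0. Mfsd1 had a log2 difference of 0.08 (edgeR adjusted p = 0.808), Mfsd6 of 0.02 (0.967), Mfsd8 of -0.05 (0.868) and Mfsd9 of -0.06 (0.949). Mfsd10 was at 0.14 (0.693), with all transferred hearts higher, Mfsd14a at 0.09 (0.816) and Mfsd7a at -0.06 (0.942). The Mfsd genes other than Mfsd4a were named after their values were seen.

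Per length, Mfsd4a lay between other genes named Mfsd in control hearts. It was at 2.28 CPM per kilobase, against 22.3 for Mfsd1, 14.9 for the lysosomal Mfsd8, 1.55 for Mfsd9 and 1.11 for Mfsd7a. The smallest p-values of the list were those of Slc40a1, Slc2a6, Slc16a4 and Slc2a3. Slc40a1, the iron exporter ferroportin, was at 21.0 to 47.5 CPM in the 4 control hearts and at 16.3, 15.1 and 11.8 CPM in transferred hearts. Its log2 fold change of -1.26 was larger in size than that of Mfsd4a, and the controls were more spread (edgeR adjusted p = 0.0813).

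Slc2a6, a glucose transporter family gene, averaged 0.346 CPM in control and 1.77 CPM in transferred hearts, with 138 counts in all (edgeR adjusted p = 0.110). Slc16a4, of the monocarboxylate transporter family, was at 2.03 ± 0.358 CPM (SD, n = 4) and 1.02 ± 0.267 CPM (SD, n = 3) (edgeR adjusted p = 0.227). The glucose transporter gene Slc2a3 was at 4.68 ± 0.795 and 10.4 ± 5.92 CPM (edgeR adjusted p = 0.292).

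**Figure D2:**
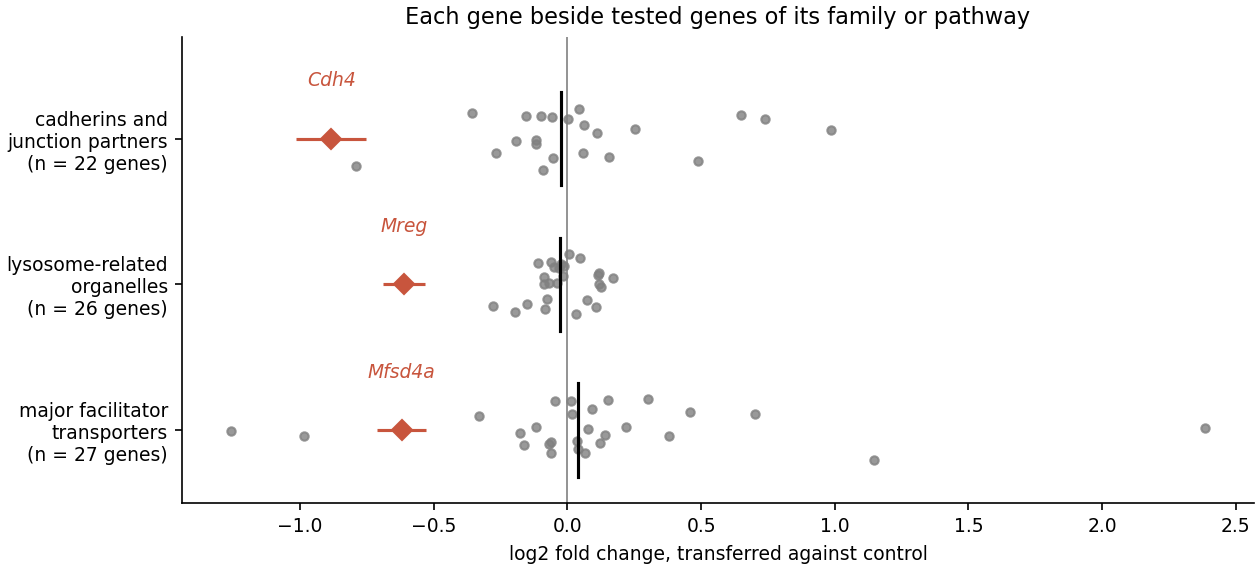
Log2 fold change of transferred against control hearts (horizontal axis) for tested genes of each list (grey points, spread vertically for legibility), their median (black bar) and the gene described here (red diamond with its standard error). The medians lie at -0.02, -0.03 and 0.04, while Cdh4, Mreg and Mfsd4a lie at -0.88, -0.61 and -0.62.

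Neighbouring genes were examined because the rule did not use position. Of the 18 nearest tested genes, 3 on each side of each member, 0 were called by edgeR (smallest adjusted p = 0.110), and limma-voom called 0. At an unadjusted p under 0.05, 8 were lower, beside the background of 5.27%, and 0 were higher. In 7 all transferred hearts lay below all control hearts, beside the background of 5.22%. The median log2 fold change was -0.25, with 12 of 18 lower. DESeq2 called 2 of them, Gm23472 (adjusted p = 0.0257) and Cdk18 (adjusted p = 0.0162), both lower, beside its background of 0.713%.

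Around Mfsd4a, the next gene, Cdk18, which encodes a cyclin-dependent kinase, was at 44.8, 51.2, 46.3 and 50.7 CPM in the control hearts, with a mean of 48.2 ± 3.17 CPM (SD, n = 4). The transferred hearts were at 38.3, 28.5 and 37.0 CPM, all below the controls. The fitted log2 fold change was -0.48, with an SE of 0.12 (edgeR adjusted p = 0.127). Klhdc8a beyond it had a log2 difference of -0.35 (edgeR adjusted p = 0.344) and Nuak2 of 0.22 (edgeR adjusted p = 0.573). On the other side, Slc45a3 had a log2 difference of -0.18 (edgeR adjusted p = 0.774) and Nucks1 of 0.08 (edgeR adjusted p = 0.691). Elk4, an ETS family transcription factor gene at 132007577 to 132026448 on the plus strand, overlaps the end of Mfsd4a. It was at 36.5 ± 2.43 CPM (SD, n = 4) and 30.9 ± 3.31 CPM (SD, n = 3), or -0.24 on the log2 scale (edgeR adjusted p = 0.379). Whether counting used strand is not given in the sources used here, so reads in that overlap cannot be assigned to either gene with certainty.

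Around Cdh4, the 3 genes after it were Taf4, 4921531C22Rik and Lsm14b, with log2 fold changes of 0.03, -0.47 and -0.25 (edgeR adjusted p = 0.948, 0.301 and 0.272). Before it, Ppp1r3d, Fam217b and Gm14292 had -0.28, -0.11 and 0.05 (edgeR adjusted p = 0.371, 0.669 and 0.858). All were smaller in size than that of Cdh4. The lncRNA genes Gm52541 and Gm36066, which lie within Cdh4 on the other strand, had 0 counts in every heart.

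Around Mreg, the fibronectin gene Fn1 had a log2 difference of 0.32 (edgeR adjusted p = 0.453) and the pseudogenes Gm5829 and Gm5256 of -0.37 and -0.71 (edgeR adjusted p = 0.730 and 0.718). On the other side lay the small nuclear RNA genes Gm23472 and Gm24497, each of 191 bases, and the lncRNA gene D230017M19Rik. Gm23472 averaged 0.752 CPM in control and 0.0816 CPM in transferred hearts, where it had at most 2.5 counts, and Gm24497 averaged 0.836 and 0.180 CPM. Fractional values occurred in 4 and 3 of 7 hearts for these genes. Small nuclear RNA genes have near-identical copies elsewhere in the genome, so these values are uncertain. D230017M19Rik had a log2 difference of 0.16 (edgeR adjusted p = 0.889).

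**Figure D3:**
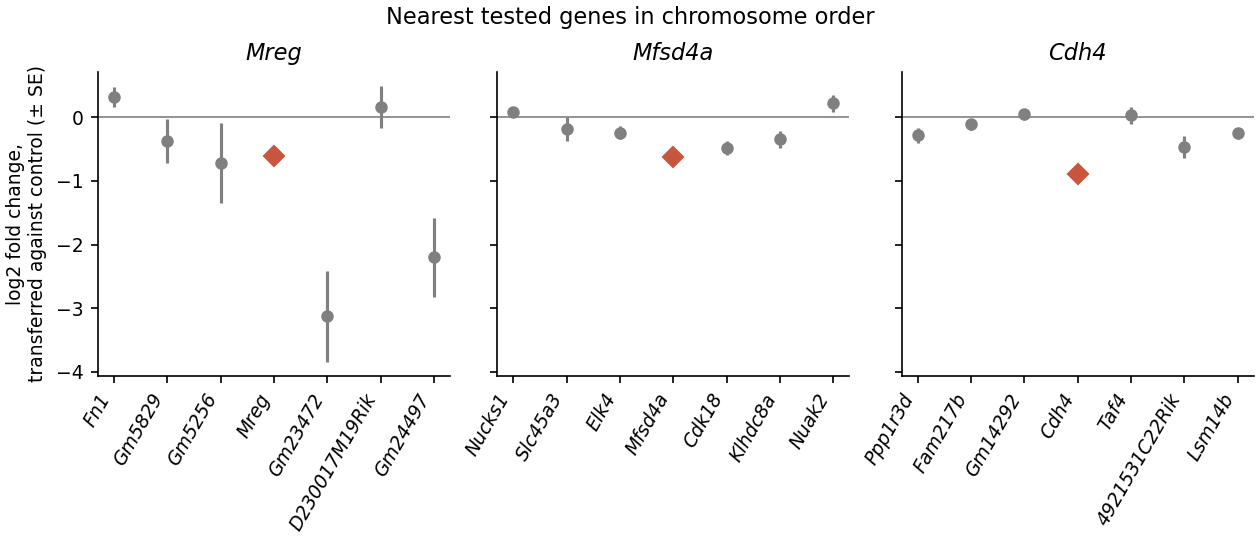
Log2 fold change with its standard error (vertical axis) of each gene (red diamond) and of the 3 nearest tested genes on either side in chromosome order (grey points). Next to Mfsd4a, Cdk18 lies at -0.48, and near Mreg the small nuclear RNA gene Gm23472 lies at -3.13 with a wide error.

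The cell makeup of the tissue was read from marker lists, given as summed CPM. The 13 cardiomyocyte markers in the analysed part, led by Actc1, Myl2 and Tnnt2, summed to between 126288 and 143659 CPM in control and between 119599 and 154438 CPM in transferred hearts, and 0 of them had no counts. Of 12 marker lists, 0 had all transferred hearts below all controls, 9 overlapped and 3 had all transferred hearts above. In such bulk tissue, fewer cells of a type and less RNA per cell cannot be told apart.

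The transferred mean was 97.8% of the control mean for the cardiomyocyte list, 106% for endothelial cells (led by Cd36, Fabp4 and Cav1), 105% for fibroblasts (Gsn, Col3a1 and Col1a2) and 94.4% for mural cells (Rgs5, Abcc9 and Steap4). It was 65.5% for Mreg, 65.1% for Mfsd4a and 54.1% for Cdh4. The lists for Schwann cells and neurons (Scn7a, Stmn2 and Dbh), melanocytes (Mitf, Kit and Slc24a5), mouse T cells (Cd28, Cd4 and Cd247), mesothelial cells (Wt1, Upk3b and Lrrn4) and adipocytes (Lipe, Pparg and Car3) were at 93.1%, 95.7%, 90.5%, 81.3% and 112%. None of these sums was as low as the 3 genes, and all overlapped between the groups. A sum can hide single markers, since Mitf made up 119 of 136 CPM of the melanocyte sum in control hearts. Likewise, Cd28 made up 28.6 of 35.3 CPM of the T cell sum there. Of the 4 tested mesothelial markers, 3 were lower and 1 higher, with a median log2 fold change of -0.86 (smallest edgeR adjusted p = 0.739). Kit, a receptor kinase gene of the same list, was at 14.1 ± 2.77 CPM (SD, n = 4) in control and 8.38 ± 2.30 CPM (SD, n = 3) in transferred hearts, without overlap (edgeR adjusted p = 0.201), and DESeq2 called it lower. The endothelial gene Tie1 was lower in all transferred hearts and Vwf higher in all, with log2 fold changes of -0.28 and 1.17 (edgeR adjusted p = 0.185 and 0.1997). Cd247 of the T cell list and Kcna1 and Dbh of the Schwann cell and neuron list were lower at an unadjusted edgeR p under 0.05 with overlapping groups, and Emcn of the endothelial list was higher. Apart from Mitf, Cd28, Kit, Dbh and Cd247, these single markers were named after their values were seen. The part of any marker in the levels of the 3 genes was not tested. Of the 6 melanocyte markers in the analysed part, Tyr had 0 counts, Tyrp1 4 and Oca2 5 over all hearts, while Slc24a5 had 392, Kit 1743 and Mitf 17604.

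The 3 lists whose sums did not overlap between the groups were those of macrophages, neutrophils and the type I interferon response. The macrophage sum was 518 to 772 CPM in control and 896 to 1362 CPM in transferred hearts, led by C1qa, C1qc and C1qb. All 12 tested macrophage genes were higher at an unadjusted p under 0.05, beside a background of 7.17%, and C1qb and Mrc1 rose by the edgeR test (adjusted p = 0.0384 for each), beside 0.235% of all tested genes called in either direction. DESeq2 called 11 of the macrophage genes higher, beside its background of 2.31%, and limma-voom called 0. The neutrophil sum was 9.56 to 14.2 CPM and 15.0 to 273.6 CPM, led by S100a9, S100a8 and Csf3r, with 6 of 6 genes higher at an unadjusted p under 0.05, against the same backgrounds, and 0 called by edgeR, against 5 by DESeq2 and 0 by limma-voom. The interferon sum was 142 to 170.3 CPM and 191 to 1617 CPM, led by Irf7, Oasl2 and Ifi204, with 10 of 11 genes higher at an unadjusted p under 0.05 (background 7.17%), of which Oas2 rose by the edgeR test (adjusted p = 0.0384). DESeq2 called 5 of the interferon genes higher (background 2.31%) and limma-voom 0. With the form of the identifier as a covariate, edgeR called 0 genes over the whole table, with 973 at an unadjusted p under 0.05. No marker of these lists was at 0 in all hearts. Their part in the lower levels of Mreg, Mfsd4a and Cdh4 was not tested.

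The interferon and neutrophil sums differed more between the transferred hearts than the macrophage sum did. The interferon sum was 998%, 242% and 118% of the control mean in transferred hearts 1, 2 and 3, and the neutrophil sum 128%, 2319% and 346%. The macrophage sum was at 202%, 214% and 141%. In the same hearts Mreg was at 63.3%, 65.8% and 67.3% of its control mean, Mfsd4a at 66.3%, 65.1% and 63.7%, and Cdh4 at 54.3%, 51.6% and 56.5%. The highest transferred heart exceeded the lowest 8.45 times for the interferon sum, 18.2 times for the neutrophil sum and 1.52 times for the macrophage sum. It did so 1.06 times for Mreg, 1.04 times for Mfsd4a and 1.09 times for Cdh4. Nothing is read from the evenness of the 3 genes over these hearts, because a small spread was part of how they were chosen.

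**Figure D4:**
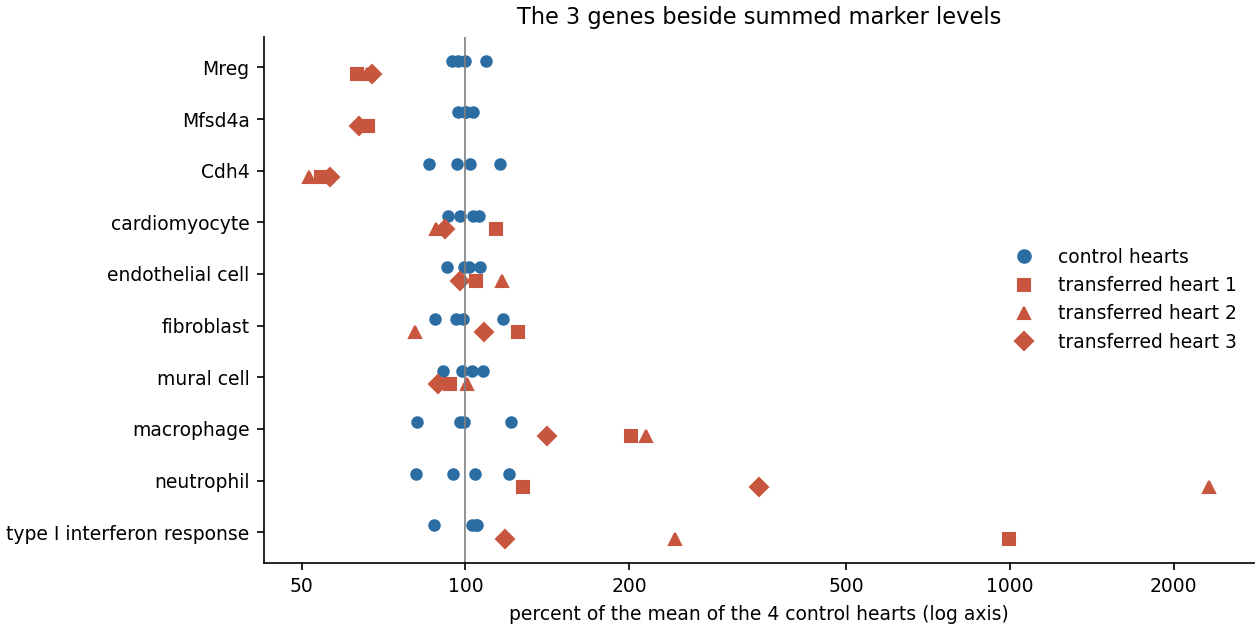
Level in each heart as a percent of the mean of the 4 control hearts (horizontal log axis) for the 3 genes and for summed markers of 7 lists. Circles are control hearts, and squares, triangles and diamonds are transferred hearts 1, 2 and 3. The 3 genes lie between 51.6% and 67.3% in all transferred hearts, while the interferon sum runs from 118% to 998%.

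Over the analysed part of the table, libraries held 16402194 to 25190580 counts, and 3 counts correspond to 0.119 to 0.183 CPM, far below the levels of the 3 genes.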

How the data were processed

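Polyadenylated RNA from the hearts of 4 control and 3 transferred mice was sequenced, and groups came from the treatment in the labels. The authors deposited estimated counts per gene that were not normalized, of which 4.63% have a fractional part. The submitters' processing notes name bcl2fastq 2.20.0.422, cutadapt 2.5, STAR 2.7.2b, featureCounts 1.6.4, DESeq2 1.22.2 and the build GRCm38.p6, with no settings. The table analysed holds 20343 complete rows for chromosomes 1 to 7 and the start of chromosome 8 (1 unfinished row was left out), and other genes are not analysed here, so column totals are not the depth of the libraries.

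Counts were rounded, filtered with filterByExpr, scaled with TMM and tested with the quasi-likelihood test of edgeR 4.0.16 with robust estimation in R 4.3.3, with Benjamini-Hochberg adjustment over 7667 genes and a threshold of 0.05. Standard errors came from the F statistic. Log2 levels used a prior count of 2. On simulated counts for 7667 genes, 67.5% of 200 genes changed by 2-fold were recovered and 4.26% of 141 calls were false. Same-group hearts differed by 18.6 to 83.1 in chi-square per degree of freedom, so none repeated another. Members, lists and motifs were chosen with earlier results of these data known. Genes named by rule were the members, their tested neighbours, the 4 most alike profiles of each, the called genes or else the 4 smallest p-values of each related list, and the 3 most abundant genes of each marker list. Other genes were named for a description, after their values were seen. A planned comparison of protein sequences was not made. Alternatives were RLE, upper-quartile and total-count scaling, other filters, no robust estimation, DESeq2 1.42.0, limma-voom (limma 3.58.1), the identifier form as a covariate or as a restriction, and leaving out each heart.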

Additional observations from a re-analysis of the deposited data

Results flagged for a closer look

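Of 54 results checked in the 4 control hearts, 3 had a heart far from the other 3 hearts, where chance gives about 1 in 20, or 2.7. The log2 CPM of 4921531C22Rik, a neighbour of Cdh4, reached 3.95 in control heart 1, and the other controls lay at 3.46 to 3.49. The log2 CPM of the junction gene Nectin4 was 0.90 in control heart 4 against -0.15 to -0.04. The summed interferon markers were at 141.9 CPM in control heart 1 against 166 to 170.3 CPM. None of these results was a level of Mreg, Mfsd4a or Cdh4 itself.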

How the results depend on the processing

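The lower levels of the 3 genes kept their direction in all 17 alternatives. Nothing is read from this, because the genes were chosen for lying lower in every transferred heart. Mreg had a log2 fold change of -0.54 among the hearts identified by numbers, the only alternative that moved a member by more than its spread between replicates. Leaving out each heart gave -0.64 to -0.56 for Mreg, -0.63 to -0.60 for Mfsd4a and -0.95 to -0.81 for Cdh4. All 3 genes were called in 8 of the 17 alternatives, 1 in 1 and 0 in 8. Over the table, 18 genes were called. Total-count scaling gave 35, keeping genes with at least 1 count 81 and DESeq2 250, while the identifier covariate, the hearts with numbers alone and limma-voom gave 0 each (973, 1054 and 907 at an unadjusted p under 0.05). Leaving out each heart gave 0 to 140. Against 0 genes called in the related lists (8 at an unadjusted p under 0.05 by edgeR), keeping genes with at least 1 count gave 1, DESeq2 gave 2 and leaving out each heart 0 to 2. Causes of these changes were not tested. The table holds part of the genome, and 3 or 4 hearts a group limit the precision.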
